A study of Rattus norvegicus with 13 samples.

Results

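The AP-1 and Egr immediate early transcription factors were followed over cholangiocarcinoma tissue and tumour-derived cell lines of the rat. AP-1 is the dimer that a protein of the Fos family forms with one of the Jun family, and the Egr proteins are zinc finger factors induced by the same signals. The 10 members were chosen by gene symbol, with no cut on a measured value but with earlier results of these data known. They are Fos, Fosb, Fosl1, Fosl2, Jun, Junb, Jund, Egr1, Egr2 and Ier2. All 10 were measured, among 14217 genes in all. They were covered by 17 probe sets, and a gene was read from whichever of its probe sets had the highest mean.

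The arrays compared whole tumours with cell lines isolated from such tumours and kept in gels of type I collagen from rat tail. Tumours arose after bile duct inoculation of BDEsp cells, which are spontaneously transformed, low grade malignant descendants of the BDE1 cholangiocyte line. The 4 tumour arrays came from intrahepatic cholangiocarcinoma of young adult male Fischer 344 rats, snap-frozen when removed. The 3 epithelial arrays came from the cancer cell line BDEsp-TDEH10 (clone H10), and the 4 fibroblastic arrays from the alpha-SMA positive cancer-associated fibroblast line BDEsp-TDFE4 (clone E4), each grown alone. Co-culture of both lines gave 1 array under an epithelial label and 1 under a fibroblastic label. All material was of Fischer 344 background, and the labels name no engineered allele and no added agent in any group. Each line is 1 clone. Time in culture, time since feeding, the plating ratio of each co-culture array and any separation of the co-cultured cells before extraction were not given in the sources used here. Nothing in the labels says that replicate arrays of a line came from separate cultures, so p-values measure the spread between these arrays, which may be technical.

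Immediate early genes are transcribed within minutes of a stimulus such as serum, growth factors, matrix contact, wounding or stress, with no need for new protein synthesis. Serum response factor with its ternary complex partners, and CREB at cyclic AMP response elements, drive that first wave, and the mRNAs are short lived. Fos proteins dimerize only with other leucine zipper proteins, whereas Jun proteins also pair with themselves. In the biliary tree, AP-1 is known as a regulator of proliferation, of matrix metalloproteinases and of inflammatory mediators. Removal of tissue and handling of cells are themselves known triggers of these genes.

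Values are the deposited RMA expression values on a log2 scale, on which 1 unit is a doubling. Because probe sets differ in brightness, levels were compared between arrays for 1 gene and never between genes. By mean level, the dimmest 25% of genes lay under 5.66, and a difference from values that low is a lower bound, since such probe sets may not be above background. Array medians lay between 6.15 and 6.25. Marker genes set the limits of each group. Fibroblastic markers averaged 5.14 to 5.25 on the epithelial arrays and 12.23 to 12.65 on the fibroblastic arrays, while epithelial markers averaged 12.02 to 12.59 and 4.80 to 5.36. Of the fibroblastic markers, Lum was low in the fibroblastic line, at 3.52 to 5.34. Of the epithelial markers, Krt7 ranged widely in that line, from 4.65 to 8.99. Both co-culture arrays carried markers of both sets, with epithelial lists at 11.73 and 11.55 and fibroblastic lists at 9.71 and 10.22. Not all fibroblastic markers were high there. Mgp read 4.52 and 5.25, against 13.44 to 14.15 on the fibroblastic arrays. Of the 12, 8 were called higher under the epithelial label than in the epithelial line. Under the fibroblastic label, 5 were called lower than in the fibroblastic line and 7 were not called. Both co-culture arrays are therefore named below by their labels only, as the array labelled epithelial co-culture and the array labelled fibroblastic co-culture. Tumours also held macrophage markers (9.99 to 10.35, against 4.94 to 5.5 on the other 9 arrays) and hepatocyte markers, which averaged 11.86 to 13.50 in tumours 1, 3 and 4 and 5.79 in tumour 2. In such bulk samples, fewer cells of a type and less RNA per cell cannot be told apart.

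Promoters of 8 of the 10 members were matched by symbol in RefSeq's table for assembly GRCr8. Those of Egr1, Egr2, Ier2 and Jund are shown, because they hold the serum response element or the complete cyclic AMP response element, through which this class of genes is switched on. Each sequence is the gene strand, 5′ to 3′, of the 150 bases before the annotated start, and capitals mark motif matches on either strand.
Egr1 (chr18:26736928-26737077, plus strand): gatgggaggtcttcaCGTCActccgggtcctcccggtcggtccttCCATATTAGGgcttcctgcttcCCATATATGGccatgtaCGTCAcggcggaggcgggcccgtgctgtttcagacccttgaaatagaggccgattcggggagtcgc
Egr2 (chr20:21054442-21054591, minus strand): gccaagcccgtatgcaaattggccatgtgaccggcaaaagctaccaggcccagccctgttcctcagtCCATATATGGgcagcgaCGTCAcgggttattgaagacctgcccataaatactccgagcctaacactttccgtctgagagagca
Ier2 (chr19:40399223-40399372, plus strand): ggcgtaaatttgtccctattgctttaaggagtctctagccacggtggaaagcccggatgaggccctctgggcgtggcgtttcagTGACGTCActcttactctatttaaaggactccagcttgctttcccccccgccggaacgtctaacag
Jund (chr16:18769772-18769921, minus strand): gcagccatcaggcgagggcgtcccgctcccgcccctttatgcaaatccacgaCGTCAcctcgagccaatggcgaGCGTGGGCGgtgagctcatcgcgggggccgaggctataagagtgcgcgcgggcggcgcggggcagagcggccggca
Matches were searched on both strands of the table's windows of 300 bases, most of which lie before the start. The CArG box, bound by serum response factor, matched in Egr1 at positions -105 and -83 and in Egr2 at position -83. It was present in 1.64% of 33469 promoters of that length. The match at -83 had the same letters, CCATATATGG, in both genes, and both also held CGTCA at -66. The complete cyclic AMP response element, TGACGTCA, matched in Ier2 at -66 and in Jund at -221, outside the stretch printed, and in 1.83% of all promoters. Its short form TGACG, which lies within the complete element, matched in Egr1, Egr2, Fosl1, Ier2, Junb and Jund, and in 21.2% of all promoters. An Egr site (GCGGGGGCG or GCGTGGGCG) matched in Jund at -76 and in Fosl2 near the far end of its window, against 3.20% of all promoters. The TATA box TATAAA matched in Junb at -49 and in Fosb at -180, against 14.2% of all promoters. The AP-1 site (TGACTCA or TGAGTCA, 4.63% of all promoters) had no match in these 8 windows. These matches describe letters and do not show binding.

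All 10 factors had a narrower range among tumours than among cultures of either line, as did 44.0% of all genes. The array labelled epithelial co-culture lay above every array of both lines in 4 members, against 10.2% of all genes. Every tumour lay below every array of both lines in 1 member, Fosb, against 18.8% of all genes. By limma with Benjamini-Hochberg adjustment over all 14217 genes, 5 members were called lower in tumour than in one of the lines, 0 were called lower than in both lines, and 0 were called higher. Between the epithelial and fibroblastic lines a single member was called, Fosl1. No member passed the adjusted threshold of 0.05 in either co-culture comparison.

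**Figure D1:**
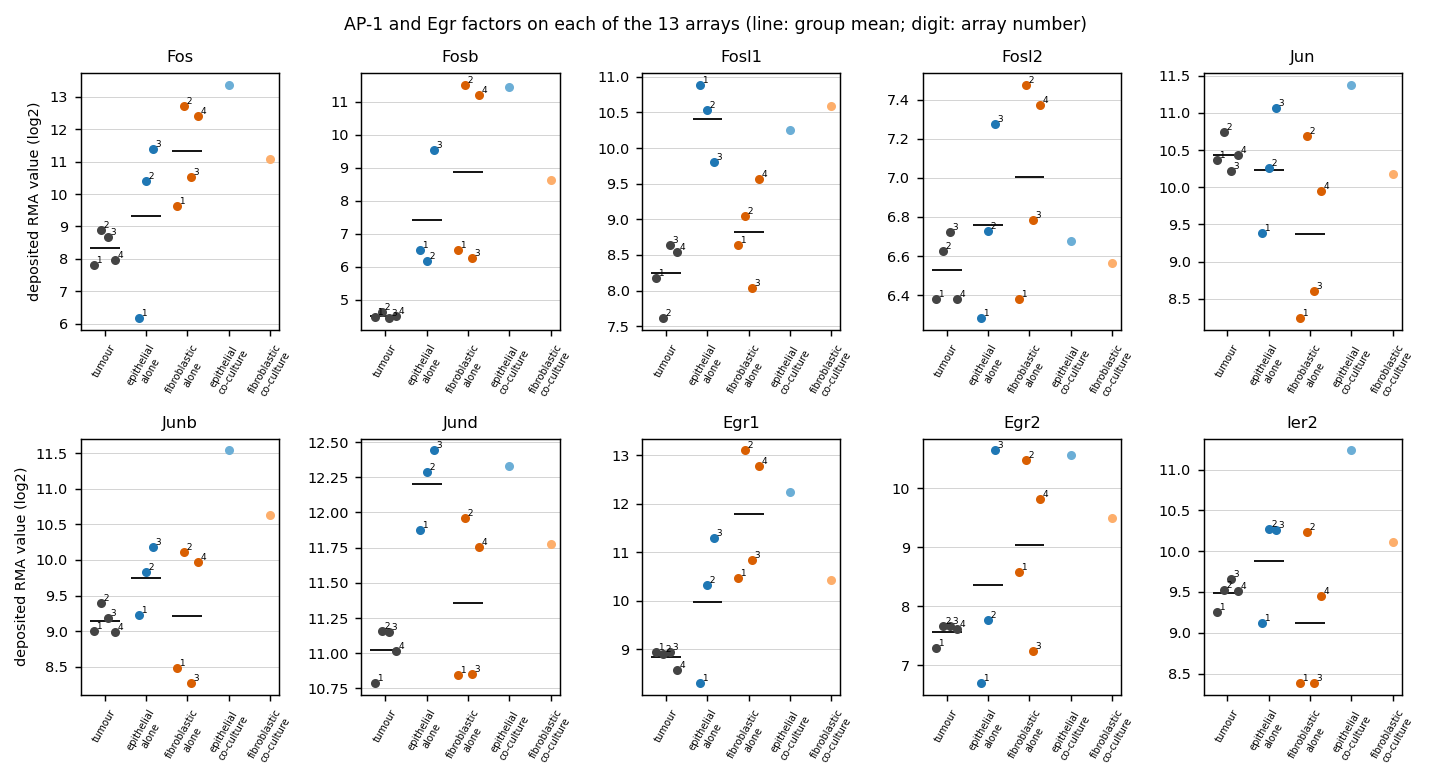
Deposited log2 expression value of each factor on each of the 13 arrays, 1 panel per gene with its own axis. Points are arrays, labelled by number, and bars are means of the 4 tumour, 3 epithelial and 4 fibroblastic arrays. Fibroblastic arrays 2 and 4 lie above arrays 1 and 3 in all 10 panels, and tumour points lie closer together than those of either line.

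Fos, the founding member of the family and a labile partner of Jun, read 7.82, 8.90, 8.69 and 7.98 in tumours 1 to 4. Epithelial arrays 1 to 3 read 6.18, 10.39 and 11.37, and fibroblastic arrays 1 to 4 read 9.65, 12.71, 10.52 and 12.41. The array labelled epithelial co-culture read 13.37, above all other arrays, and that labelled fibroblastic co-culture read 11.10, within the fibroblastic range. The epithelial arrays thus spanned a 36.7-fold range, from below every tumour to above 2 fibroblastic arrays, whereas tumours lay below every fibroblastic array, as they did in 32.0% of all genes. Fos was 7.87-fold lower in tumours than in the fibroblastic line (log2 difference -2.98, SE 1.04, adjusted p = 0.0284 by limma). This call was lost on leaving out tumour 1 (adjusted p = 0.0669), tumour 4 (0.0618), fibroblastic array 2 (0.0775) or fibroblastic array 4 (0.0740), while adjusted p over all 11 single omissions ran from 0.00328 to 0.0775. Tumour minus epithelial line gave -0.97 (95% interval -3.45 to 1.5, adjusted p = 0.490). It passed at -2.54 without epithelial array 1 (adjusted p = 0.0295) and was 0.059 without epithelial array 3. Epithelial minus fibroblastic line gave -2.01 (-4.94 to 0.93, adjusted p = 0.255).

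Fosb, whose protein is closest to Fos in sequence and function, separated tumours from cultures most clearly. Tumours 1 to 4 read 4.47, 4.63, 4.45 and 4.50, epithelial arrays 1 to 3 read 6.5, 6.17 and 9.54, and fibroblastic arrays 1 to 4 read 6.5, 11.51, 6.26 and 11.19. The co-culture labels read 11.46 for epithelial and 8.63 for fibroblastic. Every tumour lay below every array of both lines, the only member of which this was true, against 18.8% of all genes. Within the fibroblastic line the arrays spanned 38.1-fold, with 2 of them at the level of the lower epithelial arrays and 2 at the level of the array labelled epithelial co-culture. Fosb was lower in tumours than in the fibroblastic line (-4.35, SE 1.23, adjusted p = 0.0105 by limma), and every single omission kept the call (adjusted p 0.00402 to 0.0308). All 4 tumour values lay among the dimmest signals, so the size of this difference is a lower bound. Against the epithelial line, the difference of -2.89 (SE 1.32, 95% interval -5.82 to 0.04) missed the threshold at adjusted p = 0.0893. In a fit of only those 7 arrays it passed at 0.0134. With the widely spread fibroblastic arrays in the fit, adjusted p over single omissions was 0.0610 to 0.306.

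Fosl1, also known as Fra-1, which lacks a strong activation domain and accumulates under sustained ERK signalling, was higher in the epithelial line than in tumours or the fibroblastic line. Tumours read 8.18, 7.62, 8.64 and 8.54, epithelial arrays 10.89, 10.54 and 9.81, and fibroblastic arrays 8.63, 9.04, 8.04 and 9.57. The array labelled epithelial co-culture read 10.25 and that labelled fibroblastic co-culture read 10.59. Every epithelial array lay above every tumour and every fibroblastic array, positions held by 37.0% and 26.0% of all genes, and the array labelled fibroblastic co-culture lay within the epithelial range. Fosl1 was 4.49-fold lower in tumours than in the epithelial line (-2.17, SE 0.38, adjusted p = 0.00103 by limma; 0.000689 to 0.00632 over single omissions). It was 3.01-fold higher in the epithelial than in the fibroblastic line (1.59, SE 0.39, adjusted p = 0.0136), a call lost without epithelial array 1 (0.0545; single omissions otherwise ran from 0.00794). Tumours and fibroblastic line differed by -0.57 (95% interval -1.36 to 0.21, adjusted p = 0.182).

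Fosl2, also known as Fra-2, the later and longer-lived relative, varied least within the Fos family. Its tumour arrays read 6.38, 6.62, 6.72 and 6.38, epithelial arrays 6.28, 6.73 and 7.27, and fibroblastic arrays 6.38, 7.48, 6.78 and 7.37, with 6.67 and 6.57 on the arrays labelled epithelial and fibroblastic co-culture. All groups overlapped. Tumours were -0.48 from the fibroblastic line (95% interval -1.07 to 0.12) and -0.23 from the epithelial line (-0.87 to 0.41), neither past the threshold (adjusted p = 0.146 and 0.522 by limma). The former passed after a second quantile normalization (-0.66, adjusted p = 0.0472), with array weights (-0.62, 0.0318) and without fibroblastic array 1 (-0.68, 0.0373).

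Jun, the strongest activator among the Jun proteins, read 10.37, 10.74, 10.22 and 10.43 in tumours, 9.38, 10.26 and 11.07 on epithelial arrays, and 8.24, 10.69, 8.61 and 9.96 on fibroblastic arrays. The array labelled epithelial co-culture was the highest at 11.38, and that labelled fibroblastic co-culture read 10.17. On the probe set used, tumours lay in the upper part of the range of both lines, and their mean was not lower, unlike for Fos and Fosb. The tumour minus fibroblastic difference was 1.06 (95% interval -0.08 to 2.20, adjusted p = 0.0962 by limma) and the tumour minus epithelial difference was 0.20 (-1.03 to 1.43, adjusted p = 0.780). Without fibroblastic array 2 the former passed, at 1.5 (adjusted p = 0.0174; 0.0174 to 0.25 over single omissions). Another Jun probe set gave tumours lower, by -1.62 from the fibroblastic and -1.22 from the epithelial line, so the direction of Jun is not settled.

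Junb, which activates some promoters and damps Jun at others, read 9.0, 9.40, 9.18 and 8.99 in tumours, 9.23, 9.83 and 10.18 on epithelial arrays, and 8.48, 10.11, 8.27 and 9.97 on fibroblastic arrays. Both arrays labelled co-culture, at 11.54 for epithelial and 10.63 for fibroblastic, lay above every array of both lines, the only member for which both did, against 5.80% of all genes. Tumours fell within the fibroblastic range, with a difference of -0.07 (95% interval -0.97 to 0.84, adjusted p = 0.896 by limma) whose sign turned under a second quantile normalization (0.24) and under median centring (0.12).

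Jund, the Jun protein that is expressed more steadily in resting cells, read 10.79, 11.16, 11.15 and 11.01 in tumours, 11.88, 12.29 and 12.44 on epithelial arrays, and 10.85, 11.96, 10.85 and 11.76 on fibroblastic arrays. The array labelled epithelial co-culture read 12.33 and that labelled fibroblastic co-culture 11.78. Every tumour lay below every epithelial array, and the tumours overlapped the lower fibroblastic pair. Jund was 2.26-fold lower in tumours than in the epithelial line (-1.18, SE 0.28, adjusted p = 0.00583 by limma; 0.00295 to 0.0241 over single omissions). Epithelial minus fibroblastic line was 0.85 (95% interval 0.11 to 1.59) and missed the threshold (adjusted p = 0.0718), though it passed at 1.05 without fibroblastic array 2 (adjusted p = 0.0305; up to 0.195 over single omissions). It also passed with all 13 arrays in one fit (adjusted p = 0.0316) and with the mean of its probe sets (0.76, 0.00309). Its dim probe set 1387762_s_at, at 4.26 to 5.75 over all arrays, gave 1.08 (0.000706).

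Egr1, a zinc finger activator that also induces its own corepressors Nab1 and Nab2, read 8.95, 8.91, 8.94 and 8.56 in tumours. Epithelial arrays read 8.30, 10.32 and 11.29, fibroblastic arrays 10.46, 13.10, 10.84 and 12.77, and the arrays labelled epithelial and fibroblastic co-culture 12.24 and 10.43. All 4 tumours lay below all 4 fibroblastic arrays, and epithelial array 1 lay below all tumours. Egr1 was 7.75-fold lower in tumours than in the fibroblastic line (-2.96, SE 0.70, adjusted p = 0.00398 by limma; 0.00155 to 0.0132 over single omissions). Tumour minus epithelial line was -1.13 (95% interval -2.79 to 0.53, adjusted p = 0.229), and passed at -1.97 without epithelial array 1 (adjusted p = 0.0451; up to 0.640 over single omissions).

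Egr2, also called Krox20 and known from Schwann cell myelination, read 7.28, 7.66, 7.66 and 7.61 in tumours, 6.69, 7.77 and 10.65 on epithelial arrays, and 8.58, 10.48, 7.24 and 9.82 on fibroblastic arrays. The arrays labelled epithelial and fibroblastic co-culture read 10.57 and 9.49. All groups overlapped, and the 3 epithelial arrays spanned 15.5-fold. No comparison called Egr2. Its widest difference between replicated groups, tumour minus fibroblastic line, was -1.48 (95% interval -3.32 to 0.37, adjusted p = 0.147 by limma), and it passed at -2.07 without fibroblastic array 3 (adjusted p = 0.0464; up to 0.340 over single omissions) and at -1.81 with array weights (0.0396).

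Ier2, a short nuclear protein induced alongside Fos, read 9.26, 9.53, 9.65 and 9.51 in tumours, 9.11, 10.27 and 10.27 on epithelial arrays, and 8.38, 10.24, 8.39 and 9.46 on fibroblastic arrays. The array labelled epithelial co-culture read 11.24, above all others, and that labelled fibroblastic co-culture 10.11. Tumours overlapped both lines, at 0.37 from the fibroblastic (95% interval -0.53 to 1.28, adjusted p = 0.449 by limma) and -0.40 from the epithelial line (-1.37 to 0.58, adjusted p = 0.477).

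**Figure D2:**
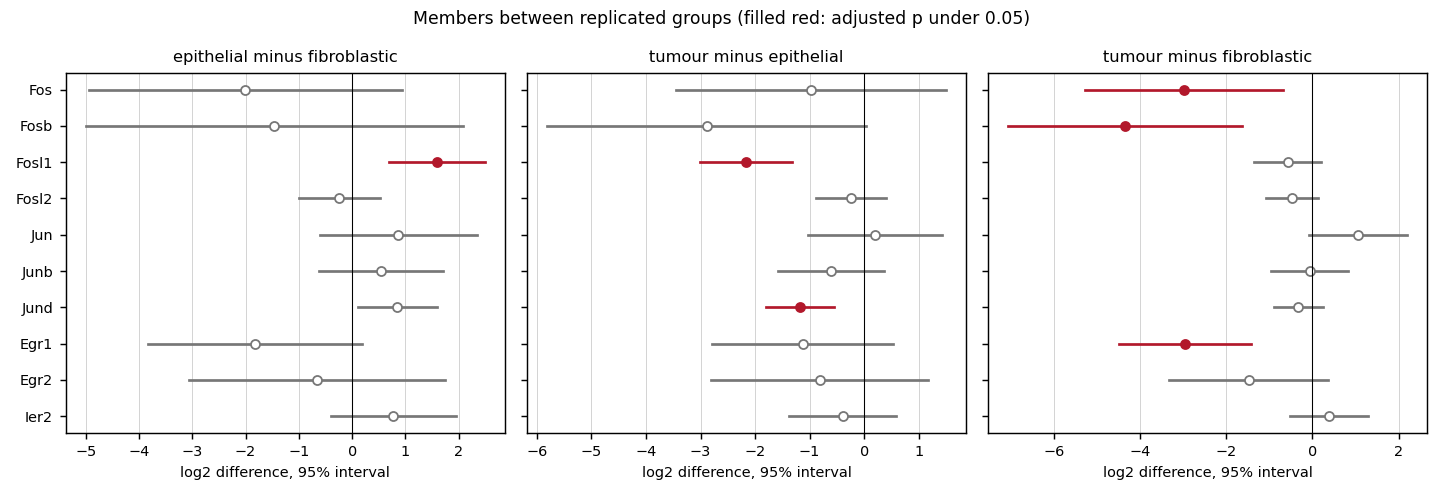
Log2 difference of each factor with its 95% interval in the 3 comparisons of tumours and lines grown alone. Filled points passed adjusted p under 0.05: Fosl1 between the lines, Fosl1 and Jund in tumour minus epithelial line, and Fos, Fosb and Egr1 in tumour minus fibroblastic line.

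Counts of called members were no higher than the background. Between the lines, 1 of 10 members was called, against 37.4% of all genes (20.9% higher and 16.6% lower in the epithelial line). Tumour minus epithelial line called 2 of 10 members, both lower (Fosl1 and Jund), against 52.1% of all genes and 33.2% called lower. Tumour minus fibroblastic line called 3 of 10, all lower (Fos, Fosb and Egr1), against 60.9% and 33.5%. The median member difference was -0.89 in the first of these tumour comparisons and -0.53 in the second, beside -0.17 and -0.07 over all genes. Over all genes, tumour minus epithelial line called 2685 higher and 4722 lower, which became 3751 and 3431 after median centring of the arrays, as the median difference moved to 0.03. Tumour minus fibroblastic line called 3888 higher and 4764 lower, which became 5095 and 3821, with the median at 0.12. The 5 tumour calls were kept under that centring.

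Most factors varied more between replicate arrays of the same line than most genes did. Their SDs within a line were exceeded by at most 14.5% of genes, apart from Jund in the epithelial line (36.4%). Fibroblastic arrays 2 and 4 both lay above arrays 1 and 3 in 10 of 10 members, against 27.3% of all genes, and by at least 1 log2 unit in 7 (Fos, Fosb, Jun, Junb, Egr1, Egr2 and Ier2), against 2.77%. The gap between the pairs was 4.69 log2 units for Fosb, 1.93 for Egr1, 1.89 for Fos and 0.41 for Fosl1. This pattern was seen in the values and then counted, so no test is attached to it. Among the epithelial arrays, array 1 was the lowest in 8 members, against 30.0% of all genes, and array 3 the highest in 8, against 32.4%. The SD of Fosb in the fibroblastic line, 2.88, was exceeded by 0.049% of genes. That of Fos in the epithelial line, 2.76, was exceeded by 0.077%, where the median SDs were 0.24 and 0.23. In tumours the SDs of Fos (0.53) and Fosl1 (0.46) were exceeded by 7.59% and 9.58% of genes. That of Fosb was 0.08, among dim values where little spread can be seen, and those of the other 7 members were 0.17 to 0.22, around a median of 0.18. The tumour ranges of the members were 1.14-fold to 2.12-fold.

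Some measures of the arrays moved with that split and others did not. The actin probe sets from the 3′ and 5′ ends of the transcript, whose difference grows as RNA is degraded or shortened, differed by 2.65 and 2.01 on fibroblastic arrays 2 and 4. On arrays 1 and 3 they differed by 1.72 and 1.05, on epithelial arrays by 0.86 to 1.47 and on tumours by 0.61 to 0.75. The Gapdh pair differed by 0.27 and 0.15 on fibroblastic arrays 2 and 4 and by 0.15 and -0.04 on 1 and 3, without separating the pairs. The hexokinase pair differed by 1.12 and 1.4 against 1.24 and 1.27, and by 1.55 to 1.83 in tumours. Of the 12 fibroblastic markers, 7 were lower on arrays 2 and 4 than on both others, against 32.5% of all genes, and 4 (Col3a1, Mgp, Cdh11 and Lum) were higher. Among the latter, Cdh11 read 12.68 and 12.56 against 11.49 and 12.05. The contractile genes Acta2 and Tagln, which define the myofibroblast, were among those lower on arrays 2 and 4, with Acta2 at 9.29 and 10.29 against 12.13 and 12.04, and Tagln at 11.91 and 12.97 against 14.36 and 14.20. The fibroblastic marker list as a whole averaged 12.23 and 12.45 against 12.65 on both other arrays, and epithelial markers 4.80 and 4.85 against 5.36 and 5.31. The widest gap among the epithelial markers was that of Krt7, at 5.40 and 4.65 against 8.99 and 8.23. Epcam and Cdh1, among others of that list, did not separate the pairs. Macrophage markers averaged 4.94 to 5.09 on all 4. The part of these measures in the spread was not tested.

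Leaving out fibroblastic arrays 2 and 4, a choice made after the data were seen and based on the actin difference, changed which members were called. These arrays had already been seen to be the highest of their line in all 10 members, so that their omission lowers the fibroblastic mean and its spread by construction, and the calls below support nothing by themselves. Against the remaining fibroblastic pair, the tumour difference of Fos became -1.74 (adjusted p = 0.244 by limma) and that of Fosb -1.87 (adjusted p = 0.0712), while Egr1 kept its call. Jun at 2.01 (adjusted p = 0.00258), Ier2 at 1.11 (0.0152) and Junb at 0.77 (0.0290) were then called higher in tumours, though another Jun probe set gave the opposite sign with all arrays, as described with the probe sets. Between the lines, Jun, Junb, Jund and Ier2 joined Fosl1 as higher in the epithelial line, at 1.81, 1.37, 1.35 and 1.5 (adjusted p = 0.0252, 0.0131, 0.00396 and 0.0224). Fosb at -2.89 (adjusted p = 0.00736) and Junb at -0.61 (0.0412) joined Fosl1 and Jund as lower in tumours than in the epithelial line. The differences from the epithelial line are the same as before, and only their error changed.

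**Figure D3:**
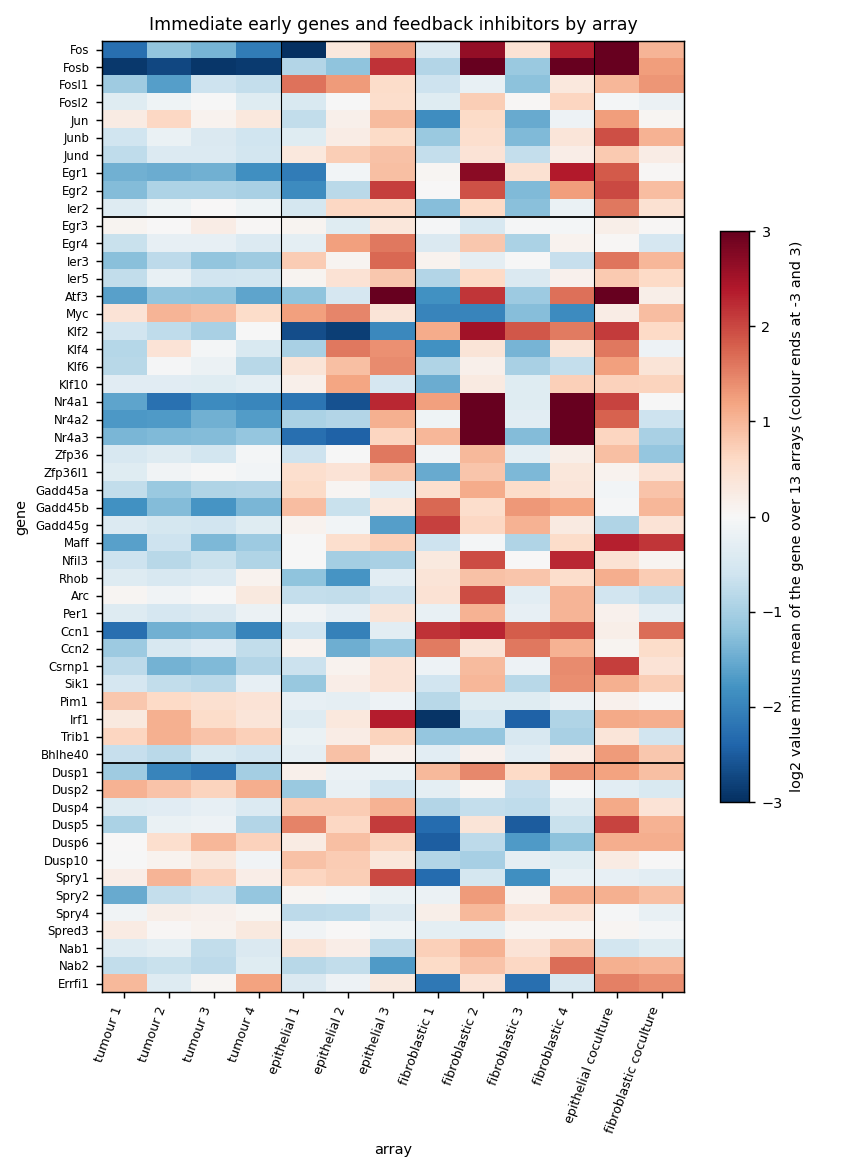
Heat map of the 10 factors, other immediate early genes and feedback inhibitors over the 13 arrays, each row shown as the log2 value minus that gene's mean over all arrays. Fibroblastic arrays 2 and 4, epithelial array 3 and the array labelled epithelial co-culture stand high for most of the factors, and tumours stand low for Fos, Fosb and Egr1.

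Co-culture was represented by 1 array for each label, assumed in the fit to vary like the replicated groups. For the array labelled epithelial co-culture, 4 of 10 members (Fos, Jun, Junb and Ier2) lay above every array of both lines, against 10.2% of all genes. With Fosb and Egr1, 6 lay above every epithelial array, against 25.7%. The array labelled fibroblastic co-culture lay above both lines in 1 member, Junb (9.15% of all genes), and above its own line in 2, Fosl1 and Junb (30.7%). It was below its own line in 1, Egr1 (27.5%). The former array read higher than the latter in 9 of 10 members, all but Fosl1, against 43.9% of all genes.

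No member was called by limma in these comparisons, where 7.24% and 8.41% of all genes were. At an unadjusted p under 0.05 in limma's fit, Junb alone passed for the epithelial label and Fosl1 alone for the fibroblastic label. Of all 14217 genes, 3200 and 2951 passed that limit, so these counts of members are no sign of a shift. Epithelial co-culture minus epithelial line was 4.05 for Fos (95% interval -0.39 to 8.49, adjusted p = 0.267), 4.06 for Fosb (-1.29 to 9.40, adjusted p = 0.365) and 1.80 for Junb (0.03 to 3.56, adjusted p = 0.213). These intervals reach from about no difference to very large ones, since Fos and Fosb ranged so far within the line itself. Egr1 and Egr2 differed by 2.27 and 2.20, Ier2 by 1.36 and Jun by 1.14, with adjusted p of 0.362 to 0.578, while Fosl1, Fosl2 and Jund lay between -0.16 and 0.13. Fibroblastic co-culture minus fibroblastic line was 1.77 for Fosl1 (0.45 to 3.08, adjusted p = 0.115) and 1.43 for Junb (-0.28 to 3.13, adjusted p = 0.333), and -1.36 for Egr1 (-4.29 to 1.57, adjusted p = 0.617). Both arrays held both cell types' markers, and the epithelial line was 1.59 higher in Fosl1. The part of the mixture was not tested. Without fibroblastic arrays 2 and 4, Fosl1 (2.25) and Junb (2.26) passed for the fibroblastic label and Junb (1.80, the same difference as before) for the epithelial label. Those arrays were the highest of their line in these genes, so leaving them out raises the fibroblastic-label differences and lowers the error by construction. These calls support nothing by themselves.

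**Figure D4:**
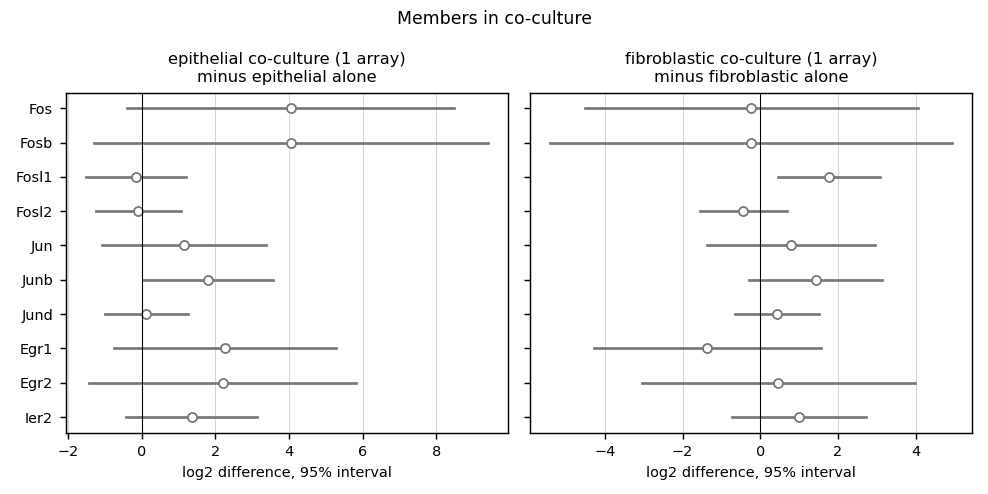
Log2 difference of each co-culture array from its line grown alone, with the 95% interval, by the label of the array. Open points did not pass adjusted p under 0.05. For the epithelial label Fos and Fosb stand near 4 with intervals that include 0.

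The difference between the co-culture changes was tested as an interaction, which called 0 of 10 members and 8.43% of all genes. At an unadjusted p under 0.05 it held Fosl1 alone, at -1.93 (95% interval -3.82 to -0.04, adjusted p = 0.223 by limma). Of all 14217 genes, 3067 passed that limit. Fos at 4.28 and Fosb at 4.29 had intervals of -1.90 to 10.46 and -3.16 to 11.74. Both co-culture arrays held both cell types' markers, and the same interaction gave -9.60 for Krt19 and 10.74 for Postn. It therefore does not compare the responses of the cell types, and each label had only 1 array.

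Profiles of the members over the 13 arrays were compared by Pearson's r, over arrays that share lines and array groups. Fos followed Egr1 (r = 0.94), Egr2 (0.87) and Fosb (0.85), and Fosb followed Egr1 (0.91) and Egr2 (0.89). Junb followed Ier2 (0.92), and Ier2 followed Jun (0.88). Fosl1 was nearest to Jund (0.81) and far from Fos (0.22) and Fosl2 (0.06). Jund was as near to Junb (0.81) and close to Ier2 (0.79), and Junb also lay near Egr2 (0.75) and Fosb (0.73). Among 6799 genes with an SD of at least 0.5 over the arrays, the profile most like that of Fos was Egr1 itself, followed by Senp7 (0.93) and Calcoco1 (0.89). For Fosb it was Ip6k1 (0.94), Tbc1d17 (0.94) and Csrnp1 (0.94), and for Egr2 it was Atf3 (0.91), Fosb and Fos. For Egr1, Tcf12 (0.94) and Nr4a2 (0.94) followed Fos. Nearest to Junb were Pcmtd2 (0.95), Bmp2 (0.93) and Ier2, and nearest to Ier2 were Usp3 (0.96), Junb and Cebpb (0.92). Jund lay nearest to Mllt3 (0.97), Cemip2 (0.96) and Ccnl1 (0.96), Jun to Add3 (0.93), Atp8a1 (0.91) and Irf1 (0.88), Fosl1 to Pou2f1 (0.91), Pla2g4b (0.91) and Gga3 (0.91), and Fosl2 to Rbm4b (0.93), Cachd1 (0.89) and Serpini1 (0.88).

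Other immediate early genes, of which 31 of 32 listed were measured, shared part of the pattern. Fibroblastic arrays 2 and 4 lay above arrays 1 and 3 in 19 of 31 (27.3% of all genes), and by at least 1 log2 unit in 11 (2.77%), among them the orphan nuclear receptors Nr4a1 and Nr4a3. Nr4a1 read 10.30, 12.56, 8.71 and 12.94 on fibroblastic arrays 1 to 4 and Nr4a3 read 7.66, 11.49, 5.36 and 11.67, in both cases with arrays 2 and 4 on top. Epithelial array 3 was the highest of its line in 22 of 31 (32.4% of all genes). The range within tumours was the smallest in 25 of 31 (44.0%). Tumour minus fibroblastic line called 4 higher and 15 lower, against 27.3% and 33.5% of all genes, with a median of -0.83, led by Nr4a1 (-3.96, adjusted p = 0.0109 by limma), the matricellular gene Ccn1 (-3.81, adjusted p = 6.03e-06) and Nr4a3 (-3.68, adjusted p = 0.0279). Tumour minus epithelial line called 4 higher and 9 lower (18.9% and 33.2% of all genes), among them Ier3 (-1.93), Gadd45b (-1.76) and Klf2 (1.89). Between the lines, 4 were higher and 6 lower in the epithelial line (20.9% and 16.6%), with Klf2 at -4.24, Ccn1 at -3.02 and the growth regulator Myc at 2.81.

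In co-culture, 2 of those 31 genes were called for each label, all higher, against 7.24% of all genes for the epithelial and 8.41% for the fibroblastic label. For the epithelial label these were Klf2 (4.58, adjusted p = 0.00161 by limma) and the small GTPase Rhob (2.18, adjusted p = 0.0372). For the fibroblastic label they were Myc (2.70, adjusted p = 0.00778) and Maff (2.40, adjusted p = 0.0285). Klf2 read 10.63 on the array labelled epithelial co-culture, inside the 9.63 to 11.04 of the fibroblastic arrays, and Myc read 10.39 on the array labelled fibroblastic co-culture, inside the 9.85 to 10.93 of the epithelial arrays. Maff differed, at 9.87 and 9.69 on the co-culture arrays against at most 8.25 on either line.

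Leucine zipper proteins outside the Fos and Jun families, which can pair with them or compete for their sites, gave 14 measured genes of 16. Between the lines, 0 were higher and 3 lower in the epithelial line (20.9% and 16.6% of all genes), namely Atf5 (-2.87, adjusted p = 0.00344 by limma), the stress factor Ddit3 (-2.12, adjusted p = 0.000561) and Jdp2 (-0.76, adjusted p = 0.0257). Tumour minus fibroblastic line called 2 higher and 7 lower (27.3% and 33.5% of all genes), with Ddit3 at -2.25 and Atf5 at -1.5. Batf, an AP-1 partner of lymphoid and myeloid cells, was higher in tumours than in either line, at 1.98 over the fibroblastic (adjusted p = 2.84e-06) and 1.96 over the epithelial line (adjusted p = 1.5e-05). Markers of T, B and NK cells, by their list mean, were 7.09 to 7.57 in tumours against 4.56 to 5.15 on all other arrays, and their part was not tested. No gene of this list was called in either co-culture, against 7.24% of all genes for the epithelial and 8.41% for the fibroblastic label. At an unadjusted p under 0.05 by limma, 1 passed for the epithelial and 2 for the fibroblastic label. Of all 14217 genes, 3200 and 2951 did.

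Kinases and factors upstream of the immediate early genes gave 11 measured genes of 18. Against the fibroblastic line, tumours were higher in 1 and lower in 6 (27.3% and 33.5% of all genes), including the ternary complex factor Elk1 (-1.34, adjusted p = 3.35e-05 by limma), serum response factor itself, Srf (-1.32, adjusted p = 0.000814), and its coactivator Mrtfa (-0.94, adjusted p = 0.00283). Against the epithelial line, 0 were higher and 4 lower (18.9% and 33.2%), with Elk3 at -0.85, Mapk8 at -0.84 and Elk1 at -0.65. Between the lines, 1 was higher and 3 lower in the epithelial line (20.9% and 16.6%), namely Mrtfa (-0.77), Mapk14 (-0.72) and Elk1 (-0.69). In co-culture, only Mapk14 was called, for the fibroblastic label (-0.99, adjusted p = 0.0381). Of all genes, 7.24% were called for the epithelial and 8.41% for the fibroblastic label.

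Feedback inhibitors, which switch the response off, gave 13 measured genes of 15. Fibroblastic arrays 2 and 4 lay above arrays 1 and 3 in 10 of them (27.3% of all genes), by at least 1 log2 unit in 3 (2.77% of all genes; Dusp5, Spry1 and Errfi1, named after their values were seen). Dusp1, the phosphatase induced most quickly by MAP kinases, was lower in tumours than in both lines, at -2.65 from the fibroblastic (adjusted p = 2.21e-05 by limma) and -1.49 from the epithelial line (adjusted p = 0.00262). Dusp6, the ERK phosphatase, was higher in tumours than in the fibroblastic line (2.10, adjusted p = 0.000369) and in the epithelial than in the fibroblastic line (2.16, adjusted p = 0.00302). Of the list, tumour minus fibroblastic line called 6 higher and 5 lower, against 27.3% and 33.5% of all genes. Tumour minus epithelial line called 2 higher and 5 lower, against 18.9% and 33.2%. Between the lines, 5 were higher and 3 lower in the epithelial line, against 20.9% and 16.6%. In co-culture the Egr corepressor Nab2 alone was called for the epithelial label (2.16), against 7.24% of all genes. For the fibroblastic label, Dusp6 (2.64) and Dusp4 (1.09) were called, against 8.41%. Nab2 read 8.74 on the array labelled epithelial co-culture, inside the 8.24 to 9.35 of the fibroblastic arrays. On the array labelled fibroblastic co-culture, Dusp4 read 7.01, between the fibroblastic (5.73 to 6.22) and epithelial arrays (7.37 to 7.66). Dusp6 read 12.22 there, against at most 12.03 on either line. The part of the mixture was not tested.

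Known AP-1 and Egr target genes gave 21 measured genes of 24. For the epithelial label 6 were called, all higher, against 7.24% of all genes, among them the chemokine Ccl2 (7.12, adjusted p = 0.00443 by limma), Il6 (5.46, adjusted p = 0.000114) and stromelysin Mmp3 (5.38, adjusted p = 0.00633). The epithelial arrays read at most 5.07 in these 3 genes, among the dimmest signals, so the differences are lower bounds and have no order. For the fibroblastic label 4 were called, all higher, against 8.41%, among them Mmp3 (5.11, adjusted p = 0.00635), Ccl2 (4.0, adjusted p = 0.0427) and tissue factor F3 (3.55, adjusted p = 0.00893). Mmp3 read 3.44 to 5.75 on the 7 line arrays grown alone and 9.88 and 9.35 on the arrays labelled epithelial and fibroblastic co-culture. F3 read 12.05 on the array labelled fibroblastic co-culture, beside 11.48 to 11.85 on epithelial and 7.61 to 9.44 on fibroblastic arrays. The part of the mixture in F3 was not tested. The median difference of the list was 1.00 and 1.44, beside -0.09 and 0.03 over all genes.

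Both co-culture arrays lay above every array of both lines in 8 of the 21 target genes, against 5.80% of all genes. Chosen after their values were seen, they were Mmp3, Mmp10, Mmp13, Ccnd1, Cd44, Il6, Ccl2 and Ptgs2. Il6, which read 3.83 to 7.52 on the lines grown alone, read 9.57 and 9.05, and the prostaglandin synthase Ptgs2, at 7.75 to 11.26 alone, read 12.10 and 11.73. Ptgs2 in turn was the 1 target in which every tumour (4.95 to 6.18) lay below both lines, and its tumour minus fibroblastic difference was -3.78 (adjusted p = 0.000414 by limma). Tumours were otherwise mixed over the list, with 4 higher and 4 lower than the fibroblastic line (27.3% and 33.5% of all genes) and 6 higher and 8 lower than the epithelial line (18.9% and 33.2%). The latter ranged from Ccl2 at 5.69 to the EGF receptor ligand Areg at -4.38 and the chemokine Cxcl1 at -4.11. Between the lines, 6 were higher and 6 lower in the epithelial line (20.9% and 16.6%), with Cxcl1 at 4.30, the ligand Ereg at 4.30 and Ccl2 at -4.28.

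**Figure D5:**
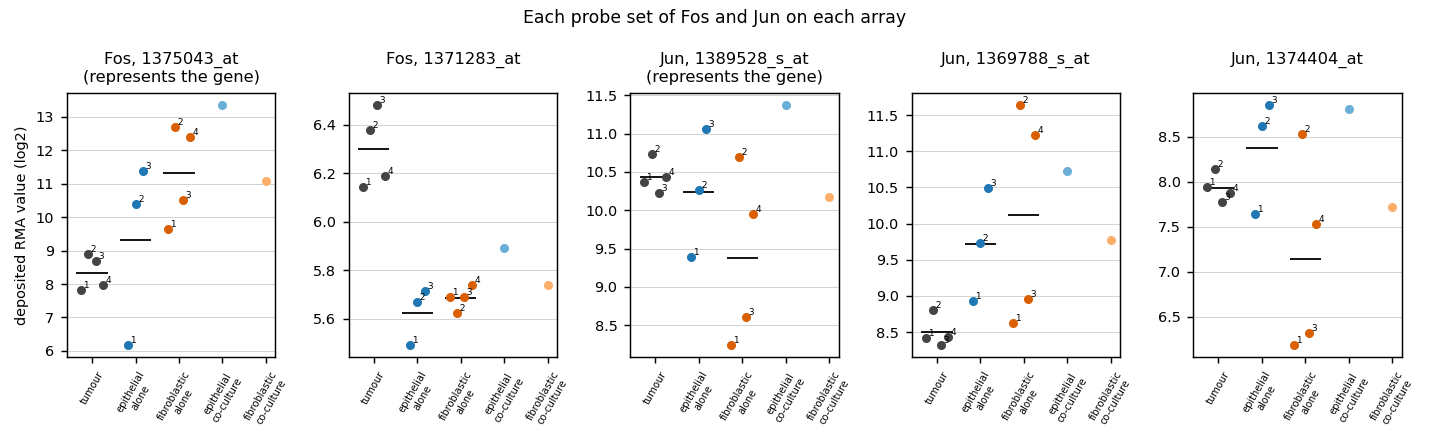
Log2 value of every probe set of Fos and of Jun on the 13 arrays. The second Fos probe set stays between 5.49 and 6.48 on every array, and the Jun probe sets order tumours and fibroblastic arrays differently.

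For 5 members the choice of probe set bears on the result. Jun was represented by 1389528_s_at, whose tumour minus fibroblastic difference was 1.06, while 1369788_s_at gave -1.62 (adjusted p = 0.0474 by limma). On the latter, tumours read 8.32 to 8.81 against 8.63, 11.64, 8.96 and 11.23 on fibroblastic arrays 1 to 4. The remaining Jun probe set, 1374404_at, gave 0.79 (adjusted p = 0.169). The direction of Jun between tumours and the fibroblastic line is therefore not settled by these arrays. Fos was represented by 1375043_at, and its other probe set, 1371283_at, read 5.49 to 6.48 over all arrays and was higher in tumours (0.61 from the fibroblastic line, adjusted p = 0.000731, and 0.67 from the epithelial line, adjusted p = 0.00104). The mean of both probe sets gave a tumour minus fibroblastic difference of -1.18 for Fos (adjusted p = 0.0835). For Jund, 1375768_at, at 4.34 to 5.07, gave 0.42 for tumour minus fibroblastic line (adjusted p = 0.00806), and 1387762_s_at gave -0.32 (adjusted p = 0.0206). The second probe sets of Fosl2 and Egr2 read no higher than 6.19 and 5.58 and were called in no comparison. Fosb, Fosl1, Junb, Egr1 and Ier2 have 1 probe set each.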

How the data were processed

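The log2 expression values of the 13 arrays were used as the authors deposited them, and were made with RMA per the submitters' processing notes. Neither its version nor which arrays it normalized as a set is given in those notes. That the values are log2 was read from their span, 2.94 to 14.69. RMA forces arrays to a common distribution, so a shift of most genes in 1 direction would not be seen. Per the labels, RNA was extracted with Trizol and converted to biotin-labelled cRNA.

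The table held 31099 probe sets, among them 57 controls, which were dropped. A single gene was named by 20826, several by 436 and none by 9780. Current symbols were found through the Entrez identifier (20758), through an accession (2), or left as given (66). The probe set of highest mean stood for each of the 14217 genes, which matters for 4525 of them.

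Tests used limma (version 3.58.1, R 4.3.3) on group means with eBayes and no trend, two-sided, with Benjamini-Hochberg adjustment over all genes and calls at adjusted p under 0.05. One fit held the 9 line and co-culture arrays, the other the 11 tumour and line arrays. The precision is limited by the number of arrays. The simulated data changed a small share of genes, picked at random, with normal noise at each gene's own spread. Most members varied more within the lines than most genes, so the recovery below cannot be taken as theirs. Tested on simulated data, the fits recovered 86, 93 and 91 of 100 changes of 2 log2 units, and 46, 66 and 65 of 100 changes of 1 unit, between the lines, in tumour minus epithelial and in tumour minus fibroblastic line. For the epithelial and fibroblastic co-culture labels they recovered 59 and 69 of the former size and 6 and 12 of the latter, and for the interaction 13 and 0. Python 3.11.15 with pandas 2.3.3 and numpy 2.4.6 made the tables, and matplotlib 3.10.9 the plots.

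The members, the gene lists and the tests were chosen with earlier results of these data known. Besides the members, up to 3 called genes of largest difference per list and comparison were named, and the 3 genes most correlated with each member. Alternatives were 1 fit of all arrays, a fit of only the groups compared, another quantile normalization, median centring, the dimmest genes left out, the mean of probe sets or every probe set, a trend with robust moderation, limits of 0.01 or 2-fold, array weights, the replicate number as a block and each array left out. Leaving out fibroblastic arrays 2 and 4 was added after seeing the data.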

Additional observations from a re-analysis of the deposited data

Results flagged for a closer look

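Within the 20 groups of 4 arrays formed by the 10 factors in tumours and in the fibroblastic line, 2 held an array far from the other 3, where chance gives about 1 in 20. For Egr1, tumour 4 read 8.56 and the other tumours 8.91 to 8.95, so that the gap to the nearest was 0.908 of the range, above the 95% critical value of Dixon for 4 arrays. For Egr2, tumour 1 read 7.28 and the other tumours 7.61 to 7.66, a gap of 0.869 of the range. Both gaps are small beside the spread of these genes within the lines. Fibroblastic arrays 2 and 4 form a pair and were not picked out in this way.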

How the results depend on the processing

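Most single differences held, but 9 of the 10 factors had a sign that turned in some comparison, and the other, Egr1, gained a call without epithelial array 1. Of the differences of the 10 factors under the alternatives, 1194 kept direction and side of the threshold, 25 gained a call, 11 lost one and 52 turned sign, while 224 of 248 counts stayed within 1.5 times of the main one. The reversals were of differences not called in the main setting, apart from the second probe sets of Fos and Jund. The cause of changes was not tested.

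Between the lines, 1 factor was called, which became 2 with all 13 arrays in one fit, and with the mean of probe sets, 0 at the limit of 0.01, and 5 without fibroblastic arrays 2 and 4. Over single omissions it was 0 to 2. Genes called numbered 3391 at 0.01 and 3310 at 2-fold, from 5324. In tumour minus epithelial line, 2 became 4 without fibroblastic arrays 2 and 4, and 2 to 4 over single omissions, and genes called went from 7407 to 4878 at 0.01 and 3465 at 2-fold. In tumour minus fibroblastic line, 3 became 1 at 0.01 and 5 with array weights, and genes called went from 8652 to 4343 at 2-fold. For the epithelial co-culture label, genes called went from 1029 to 1743 with all 13 arrays and 453 at 0.01, and factors from 0 to 1 without fibroblastic arrays 2 and 4. For the fibroblastic label these were 1195 to 532 at 0.01, and 0 to 2. The interaction went from 1198 to 632 at 0.01. With each of the 17 probe sets tested on its own, the probe sets called were 2 between the lines (of 2 factors), 4 in tumour minus epithelial line (of 3 factors) and 7 in tumour minus fibroblastic line (of 5 factors), in the last with Fos and Jund in both directions.

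Signs turned as follows. Probe set 1369788_s_at of Jun gave -0.40 between the lines, -1.22 and -1.62 in tumour minus epithelial and minus fibroblastic line, and -0.34 for the fibroblastic co-culture label. Probe set 1374404_at gave -0.44 in tumour minus epithelial line and -0.14 in the interaction, and the mean of Jun probe sets gave -0.49 in the former. Probe set 1371283_at of Fos gave 0.67, 0.61 and, for the fibroblastic label, 0.053. Probe set 1375768_at of Jund gave 0.073 and 0.42 in the tumour comparisons and -0.082 for the epithelial label, where 1387762_s_at gave -0.26 and the mean -0.071. The second probe set of Fosl2 gave 0.015 between the lines and 0.002 in tumour minus fibroblastic line, and that of Egr2 gave 0.47, 0.43 and, in the interaction, -0.086. Junb in tumour minus fibroblastic line gave 0.24 after quantile normalization and 0.12 after centring.

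Without fibroblastic arrays 2 and 4, Fosb, Fosl2 and Egr2 gave 1.02, 0.18 and 0.46 between the lines, and Junb and Jund 0.77 and 0.18 in tumour minus fibroblastic line. Fos and Fosb gave 1.01 and 2.25 for the fibroblastic label, and Fosl2, Jun, Junb and Ier2 gave -0.07, -0.61, -0.46 and -0.37 in the interaction.

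Over single omissions, Egr2 ran from -1.80 to 0.17 between the lines. In tumour minus epithelial line, Jun ran from -0.22 to 0.62, Fos from -2.54 to 0.059, Fosl2 from -0.47 to 0.023 and Egr2 from -1.65 to 0.33. Junb ran from -0.38 to 0.24 in tumour minus fibroblastic line. For the epithelial label, Fosl1 ran from -0.46 to 0.078, Jund from -0.034 to 0.25 and Fosl2 from -0.33 to 0.17. For the fibroblastic label, Fos ran from -0.78 to 0.24, Fosb from -1.10 to 0.65 and Egr2 from -0.14 to 0.94. In the interaction, Jun ran from -0.095 to 0.76 and Ier2 from -0.023 to 0.61.

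The replicate block called 4252, 6638 and 8405 genes and 1, 2 and 3 factors in the comparisons of lines and tumours, with no call of a factor changed. Same-numbered arrays correlated in their deviations at -0.15 to 0.14 over 10 pairs, and differently numbered arrays at -0.19 to 0.20. No pairing by number was seen, which does not exclude a shared origin or batch. The co-culture arrays carry no number and have no block. A fit of only the groups compared could not be fitted for the interaction. Dim probe sets, such as the second one of Fos, limit what these arrays measure.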
